A study of Mus musculus with 10 samples.

Results

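The mitochondrial carrier family was examined in RNA of the mouse left ventricle under pressure overload. Rows of the deposited table whose symbol began with Slc25a, together with Ucp2 and Ucp3, gave 49 genes. Of these, 41 reached 1 CPM (reads scaled to a library total of 1000000) in at least 5 of the 10 libraries and are described here, out of 12350 genes in the table of 45706 that passed the same filter. The 8 genes under the filter reached 1 CPM in 0 libraries. Slc25a48 and Slc25a54 were listed at 0 throughout, and Slc25a2, Slc25a18, Slc25a21, Slc25a31, Slc25a41 and Slc25a43 peaked between 0.126 and 0.653 CPM, where 3 reads of the shallowest library are worth 0.189 CPM. Just inside the filter lay Slc25a53 (6 libraries at 1 CPM, 0.608 to 1.83 CPM), Slc25a14 (8 libraries, 0.885 to 2.52 CPM) and Slc25a30 (8 libraries, 0.610 to 2.65 CPM).

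All 10 hearts had undergone transverse aortic constriction (TAC), an operation that narrows the aorta and loads the left ventricle with pressure. The control group held 5 samples titled TAC placebo, whose treatment label reads vehicle, and the other group held 5 samples titled TAC osimertinib, given a drug against lung tumours that blocks the kinase of the EGF receptor. No unoperated heart was among the samples, so both groups share the operation. The labels give no strain, age, dose or duration. The labels do not say that each sample is a separate animal, so p-values measure the spread between these samples. The comparison of the groups addresses the study's stated interest in the cardiac toxicity of the drug.

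Members of this family sit mostly in the inner mitochondrial membrane, which is closed to most metabolites, and each moves a small set of solutes across it. Adenine nucleotide translocases exchange matrix ATP for cytosolic ADP, the phosphate carrier brings in the phosphate that ATP synthase needs, and other members carry acylcarnitines for fatty acid oxidation, malate, aspartate and glutamate for the transfer of reducing equivalents, cofactors, iron or protons. Heart muscle, which makes nearly all its ATP in mitochondria, is among the tissues richest in these proteins.

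Sequences upstream of 5 members are shown, 2 called higher after osimertinib (Slc25a3 and Slc25a12), 1 called higher on the deposited CPM but not after rescaling (Slc25a20) and 2 called lower (Slc25a45 and Slc25a47). These are RefSeq promoter windows (mouse GRCm38.p6), cut where an annotated GENCODE M21 exon begins, and capitals mark any match to the motifs named after them. The genes were chosen after their values were seen. The Slc25a3 window, upstream of the phosphate carrier, is chr10:91124060-91124217 on the minus strand, and that of Slc25a20, the carnitine-acylcarnitine carrier, is chr9:108661886-108662087 on the plus strand. The window of Slc25a12, a carrier exchanging aspartate for glutamate, is chr2:71367756-71368005 on the minus strand. Those of Slc25a45 and Slc25a47, listed here without an assigned substrate, are chr19:5877572-5877807 and chr12:108850879-108851128 on the plus strand, the last lying within the gene's longest annotated span.
Slc25a3: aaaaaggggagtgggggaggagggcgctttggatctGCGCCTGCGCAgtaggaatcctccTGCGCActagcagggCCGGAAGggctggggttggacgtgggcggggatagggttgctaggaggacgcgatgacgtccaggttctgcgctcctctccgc
Slc25a20: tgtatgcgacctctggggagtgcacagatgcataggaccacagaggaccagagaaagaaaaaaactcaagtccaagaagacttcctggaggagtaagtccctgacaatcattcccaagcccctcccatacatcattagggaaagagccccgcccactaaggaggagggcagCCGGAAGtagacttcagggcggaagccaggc
Slc25a12: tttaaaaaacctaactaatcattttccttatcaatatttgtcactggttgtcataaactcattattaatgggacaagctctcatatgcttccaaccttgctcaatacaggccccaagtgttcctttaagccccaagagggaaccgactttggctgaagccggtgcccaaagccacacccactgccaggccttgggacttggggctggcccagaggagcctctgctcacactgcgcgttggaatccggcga
Slc25a45: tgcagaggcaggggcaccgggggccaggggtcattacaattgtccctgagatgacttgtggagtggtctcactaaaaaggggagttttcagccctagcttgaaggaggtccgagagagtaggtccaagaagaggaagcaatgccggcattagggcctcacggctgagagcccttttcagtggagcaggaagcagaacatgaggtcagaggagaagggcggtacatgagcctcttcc
Slc25a47: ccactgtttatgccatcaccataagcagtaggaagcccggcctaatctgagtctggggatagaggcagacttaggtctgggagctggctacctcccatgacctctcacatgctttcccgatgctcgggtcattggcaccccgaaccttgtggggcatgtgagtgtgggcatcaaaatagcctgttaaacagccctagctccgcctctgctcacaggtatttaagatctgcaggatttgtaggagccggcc

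10 letter strings were searched on both strands in the 250 bases before the RefSeq start, and 32 of the 41 members matched an entry among 27025 promoters. The Ets-type string CCGGAAG was found in 5 of the 32 members (15.6%, against 7.07% of all promoters), namely Slc25a3, Slc25a4, Slc25a17, Slc25a20 and Slc25a38. The E-box CACGTG was also found in 5 (15.6%, against 6.04% of all promoters), namely Slc25a1, Slc25a13, Slc25a14, Slc25a33 and Slc25a36. The palindrome read by nuclear respiratory factor 1 occurred in Slc25a3 alone (3.12% of members, 3.87% of all promoters). There it overlaps a match to the shorter string TGCGCA, and another TGCGCA lies apart from it. TGCGCA was found in Slc25a3 and Slc25a36 (6.25%, against 6.67%). AAGGTCA, the core of the sites of estrogen-related receptors, was found in Slc25a34 (3.12%, against 4.04%), and TGACGTCA in Slc25a36 (3.12%, against 1.6%). No member window held TNAAGGTCA, the longer estrogen-related receptor site (1.13% of all promoters), the direct repeat read by peroxisome proliferator-activated receptors (0.037%), a YY1 site (0.285%) or a MEF2 site (0.144%). The printed windows of Slc25a12, Slc25a45 and Slc25a47 held none of the 10 strings. A match of letters is a description of the sequence and not evidence of binding.

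Depth lay between 15863265 and 21309296 reads per library. In 9 libraries 31.7% to 48.0% of the CPM came from genes encoded by mitochondrial DNA, and in placebo library 5 it was 63.4%, which lowers the CPM of every nuclear gene there. Values were therefore rescaled between libraries by median ratio, and "rescaled CPM" below means the CPM after division by a factor of 0.455 for placebo library 5 and 0.926 to 1.34 for the others. These factors take in any difference shared by most genes and not the mitochondrial share alone. Heart muscle content was checked with 8 cardiomyocyte markers, all present in every library and most shared by atrium and ventricle, whose summed level was 14212 to 30039 rescaled CPM with placebo and 24408 to 38877 with osimertinib. The ventricular light chain Myl2, one of the 8, was at 1650 to 5351 and 3542 to 7966. Libraries also differed in atrial transcripts. Myl7, Myl4 and Sln are largely atrial. Their sum was 1.44 to 2.43 rescaled CPM in placebo libraries 3 and 4 and osimertinib libraries 3 and 5. In the other 6 it was 119 to 2561. The atrial gene Bmp10 was at 0 in all 10. Nppa, another listed atrial marker, did not follow that split. It was at 490 to 1496 rescaled CPM in those 4 libraries and 442 to 1820 in the other 6. Below, "almost no atrial transcripts" refers to Myl7, Myl4 and Sln alone. In bulk tissue, fewer cells of a type and less RNA per cell cannot be told apart.

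After osimertinib the adenine nucleotide translocases Slc25a4 and Slc25a5, the phosphate carrier Slc25a3, the oxoglutarate-malate carrier Slc25a11 and the aspartate-glutamate carrier Slc25a12 were higher by 1.66-fold to 2.26-fold, as were Slc25a16, Slc25a23, Slc25a26 and Slc25a33 by 1.28-fold to 1.68-fold. Slc25a25, Slc25a45 and Slc25a47 were lower, at 0.557 to 0.6001 times the placebo level. Of the 41 members, 9 rose and 3 fell at an adjusted p of 0.05 (limma, Benjamini-Hochberg over 12350 genes), or 21.9% and 7.32% of members. Across all genes tested, 10.4% were called higher and 10.5% lower. The median log2 fold change of the members was 0.10, with 23 positive and 18 negative values, against 0.01 over all genes. On the deposited CPM without rescaling, 8 members were called higher and 0 lower (0 also at an unadjusted p under 0.05 in limma), where 6.62% of all genes were higher and 0.13% lower. That scale moved the median of all genes by 0.26. Of the 9 members that rose, 6 were called on both scales, and 27 of 41 were called on neither.

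**Figure D1:**
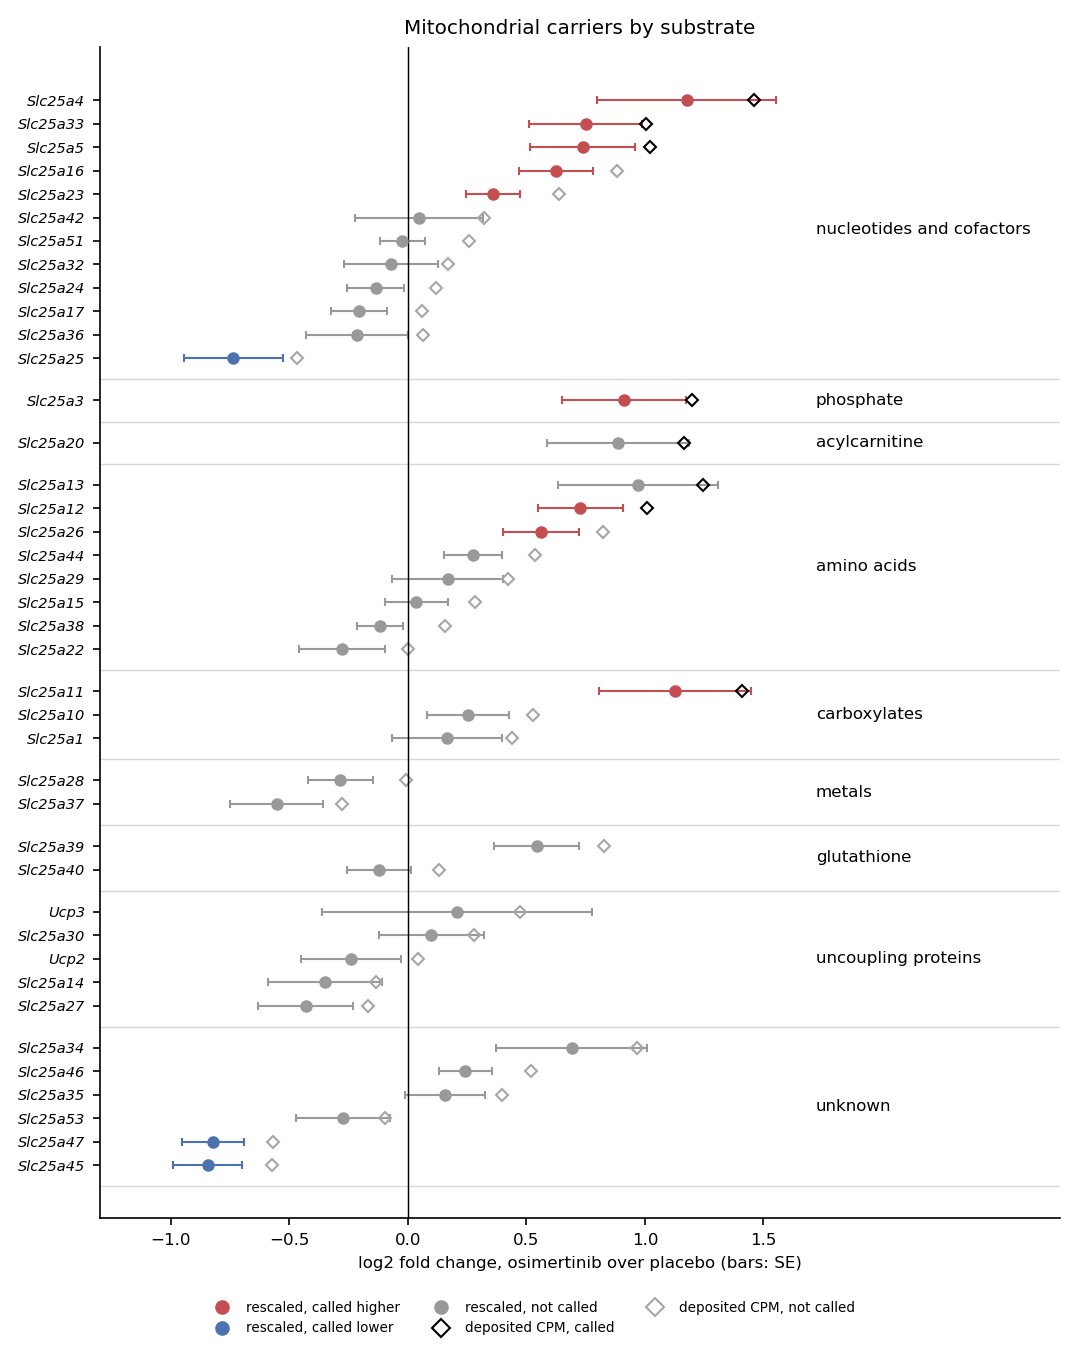
Log2 fold change of the carriers (osimertinib over placebo, x axis, on the log2 of CPM plus 0.5) by substrate group, with circles and SE bars for rescaled CPM and diamonds for deposited CPM. Red and blue mark the 9 members called higher and the 3 called lower on rescaled CPM, and the diamonds lie to the right by about the shift of all genes.

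The number of members called higher changed with the libraries included. With placebo library 1, osimertinib library 3 or osimertinib library 5 left out, 0 members were called higher, although 12 still had an unadjusted p under 0.05 in each of those limma fits. Without placebo library 2 it was 1, without placebo library 5 it was 4 and without osimertinib library 2 it was 5. Calls were lost across all genes too, where 1283 of 12350 were called higher with every library. That count was 373, 317 and 1013 without placebo library 1, 2 or 5. It was 843, 218 and 296 without osimertinib library 2, 3 or 5. The log2 fold changes of the 9 members stayed positive without any 1 library, the lowest being 0.28 for Slc25a23. Osimertinib library 3 or 5 was the highest of all 10 for 9 of the 9 carriers that rose, and placebo library 1 was the lowest for 6 of 9. Those osimertinib libraries were also among the 4 with almost no atrial transcripts. In a limma fit with the summed Myl7, Myl4 and Sln level as a covariate, chosen after the data were examined, 14 members were called higher and 6 lower, where 20.7% and 16.8% of all genes were, and 12 of the 12 members called without the covariate stayed called in the same direction.

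Slc25a4, the adenine nucleotide translocase of heart and muscle, was by far the most abundant member, at 912 rescaled CPM per kilobase of exon averaged over the 10 libraries. It lies at chr8:46206797-46211284 (GRCm38, minus strand). The 5 placebo libraries, in order, held 623, 1029, 2192, 2190 and 895 rescaled CPM, and the 5 osimertinib libraries held 1932, 2580, 3711, 2064 and 4244. Osimertinib libraries 1 and 4 lay below placebo libraries 3 and 4, so the groups overlapped, while all 5 exceeded the placebo mean of 1386 ± 749 (SD, n = 5). The level rose with a log2 fold change of 1.18 ± 0.38 (SE), or 2.26-fold (limma adjusted p = 0.0462), and 4 of the 10 fits without 1 library kept the call, with adjusted p between 0.0277 and 0.117. Among libraries with almost no atrial transcripts, the placebo pair held 2192 and 2190 and the osimertinib pair 3711 and 4244. In the other 6 the placebo values were 623 to 1029 and the osimertinib values 1932 to 2580, so the groups were apart within each set. This split was made after the values were seen, and 36.2% and 18.6% of all genes tested were apart in that direction in the 4 and the 6 libraries. With the atrial covariate the log2 fold change was 1.29 ± 0.21 (limma adjusted p = 0.00051).

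Slc25a5, the translocase isoform more common outside muscle, was at 62.6 rescaled CPM per kilobase. Its levels were 60.6, 58.2, 110, 97.0 and 61.8 rescaled CPM with placebo and 100, 119, 167, 96.1 and 160 with osimertinib. The overlap again came from placebo libraries 3 and 4 against osimertinib libraries 1 and 4. It rose by a log2 fold change of 0.74 ± 0.22 (limma adjusted p = 0.0372). A near-identical processed copy, Slc25a5-ps, is annotated, so the division of its reads is uncertain. The log2 ratio of Slc25a4 to Slc25a5 within a library averaged 4.02 ± 0.45 (SD, n = 5) with placebo and 4.46 ± 0.17 with osimertinib, a difference of 0.44 that did not pass (exact permutation p = 0.0714, adjusted p = 0.139 over 7 pairs).

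**Figure D2:**
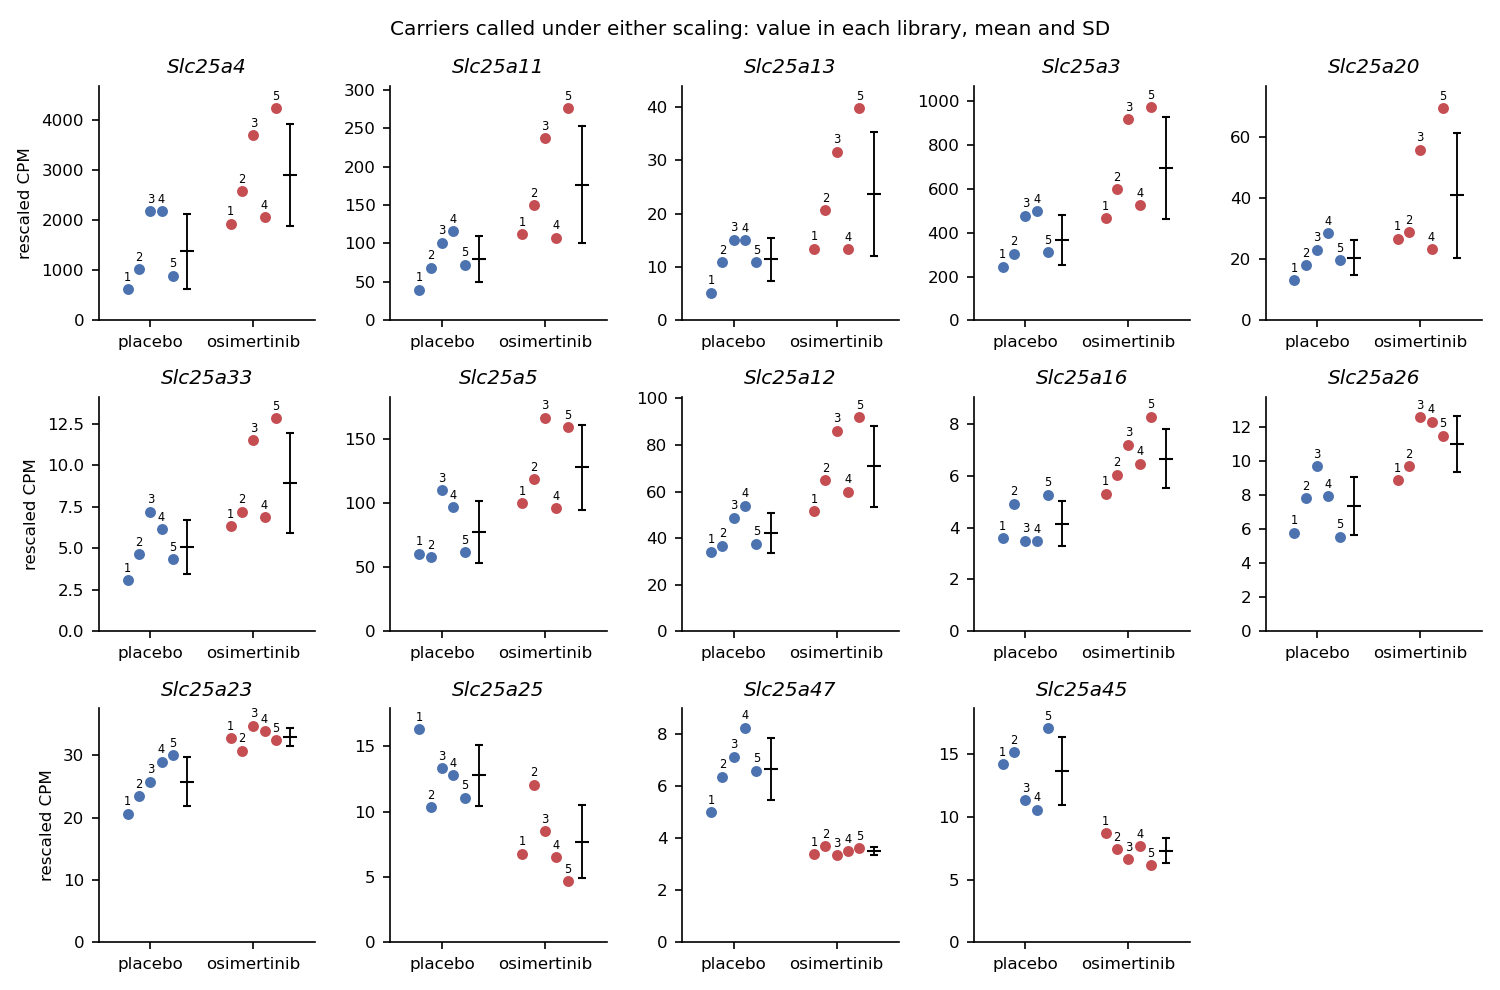
Rescaled CPM (y axis, from 0) of the 14 carriers called on either scale, with 1 point per library numbered by replicate, and bars for the mean and SD of 5 libraries. Osimertinib libraries 3 and 5 stand highest for Slc25a4, Slc25a11 and Slc25a3, and the groups do not touch for Slc25a45 and Slc25a47.

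Slc25a3, the phosphate carrier, was second in abundance at 95.8 rescaled CPM per kilobase. Placebo libraries held 245, 305, 478, 498 and 310 rescaled CPM and osimertinib libraries 466, 598, 916, 526 and 972. Only osimertinib library 1 lay within the placebo range. The rise was 0.91 ± 0.26 on the log2 scale (limma adjusted p = 0.0327), with 5 of 10 fits without 1 library called. Together Slc25a4 and Slc25a3 made up most of the summed carrier level. Slc25a4 alone held 40.98% to 62.66% of that sum in placebo libraries and 59.49% to 65.78% in osimertinib libraries, and Slc25a3 held 13.7% to 16.1% and 14.5% to 15.9%, so the share of Slc25a3 was alike in both groups while 3 placebo libraries had a smaller share of Slc25a4.

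**Figure D3:**
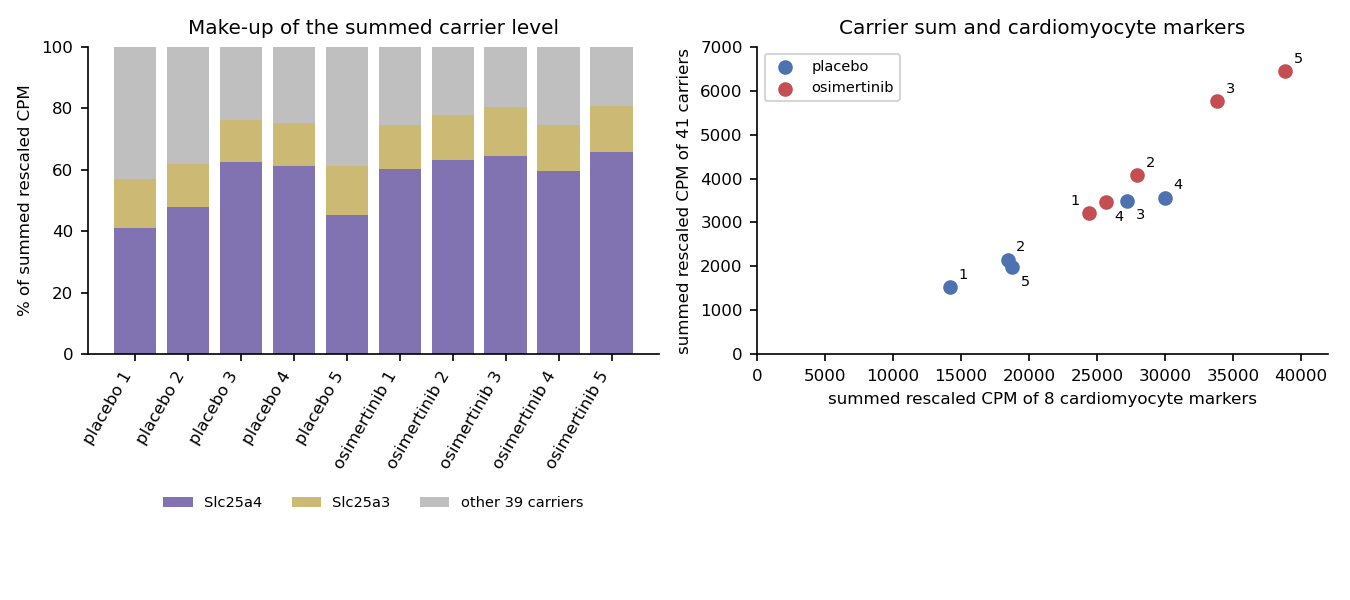
Left, the percentage of the summed rescaled CPM of 41 carriers taken by Slc25a4, Slc25a3 and the other 39 in each library. Right, that sum against the summed rescaled CPM of 8 cardiomyocyte markers, 1 numbered point per library, where both rise together from placebo library 1 (1519 for carriers) to osimertinib library 5 (6451).

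The summed carrier level moved with the cardiomyocyte markers across the libraries. It was 1519, 2152, 3498, 3568 and 1973 rescaled CPM with placebo and 3209, 4075, 5758, 3470 and 6451 with osimertinib. As a percentage of the cardiomyocyte marker sum it was 10.7, 11.7, 12.8, 11.9 and 10.5 with placebo, and 13.1, 14.6, 17.0, 13.5 and 16.6 with osimertinib. That percentage does not depend on the scaling between libraries. It does depend on the markers chosen. Myh6 was the largest part of the marker sum (mean 9723 rescaled CPM with placebo), and its log2 fold change was 0.31. The log2 fold changes of the 8 markers ran from 0.04 (Ttn) to 1.02 (Actn2), so a sum weighted to other markers would give other percentages. Of the 8 markers 1 was itself called higher (Actn2, log2 fold change 1.02, limma adjusted p = 0.0308), and their median log2 fold change was 0.61. Of 6 endothelial markers 2 were called lower (Tie1 and Egfl7), with summed levels of 1214 to 1835 rescaled CPM with placebo and 1068 to 1372 with osimertinib. The part of cell composition in the carrier differences was not tested.

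Among the carriers that link the cytosol and matrix through malate and aspartate, Slc25a11, which exchanges oxoglutarate for malate, had the largest rise, second in the family to Slc25a4. Its placebo libraries held 40.0, 68.4, 101, 116 and 72.3 rescaled CPM and its osimertinib libraries 112, 150, 237, 108 and 276. Osimertinib libraries 1 and 4 lay just under placebo library 4. The log2 fold change was 1.13 ± 0.32 (limma adjusted p = 0.0320). Slc25a12, the calcium-sensitive aspartate-glutamate carrier of muscle, held 34.2, 36.8, 48.9, 54.0 and 37.6 with placebo and 51.6, 64.8, 86.2, 59.9 and 92.0 with osimertinib. Its rise of 0.73 ± 0.18 (limma adjusted p = 0.0220) stayed called in 6 of the 10 fits without 1 library, and a single osimertinib library, the first, overlapped the placebo range.

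Slc25a13, the aspartate-glutamate isoform known from liver, held 5.19, 10.9, 15.2, 15.1 and 10.9 rescaled CPM with placebo and 13.5, 20.6, 31.6, 13.3 and 39.7 with osimertinib. Its log2 fold change of 0.97 ± 0.34 missed the threshold on rescaled CPM (limma adjusted p = 0.0575) and passed on the deposited CPM (1.24, adjusted p = 0.0136). The log2 ratio of Slc25a12 to Slc25a13 was 1.902 ± 0.398 (SD, n = 5) with placebo and 1.658 ± 0.367 with osimertinib (exact permutation p = 0.365, adjusted p = 0.491). The 4 enzymes of the malate-aspartate shuttle that act beside these carriers all rose, as did 10.4% of all genes tested. Mdh1, the cytosolic malate dehydrogenase, had a log2 fold change of 1.48 ± 0.34 (limma adjusted p = 0.0182), and that of its mitochondrial partner Mdh2 was 1.20 ± 0.31 (adjusted p = 0.0252).

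Slc25a20 brings acylcarnitines into the matrix for fatty acid oxidation. The placebo libraries held 13.1, 18.1, 23.2, 28.6 and 19.7 rescaled CPM and the osimertinib libraries 26.8, 29.0, 56.0, 23.4 and 69.7. Osimertinib libraries 3 and 5 stood far above the rest, and libraries 1 and 4 overlapped placebo library 4. The difference of 0.89 ± 0.30 was not called on rescaled CPM (limma adjusted p = 0.0522) and was called on deposited CPM (1.17, adjusted p = 0.0205). Of 5 carnitine cycle partners 0 were called on rescaled CPM by limma, while 3 had an unadjusted p under 0.05. Their log2 fold changes were 0.72 for Crat and 0.89 for Cpt2 but -0.52 for the carnitine importer Slc22a5 (limma adjusted p = 0.0660, 0.0884 and 0.0788). Cpt2, which acts on the matrix side, was the 1 called on the deposited CPM (log2 fold change 1.17, adjusted p = 0.0284), whereas the entry enzyme of muscle, Cpt1b, had a log2 fold change of 0.10 (limma adjusted p = 0.704 on rescaled CPM).

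Among amino acid carriers, 2 of 8 rose and 0 fell (10.4% and 10.5% of all genes tested). Besides Slc25a12, this was Slc25a26, which takes up S-adenosylmethionine for methylation inside mitochondria. It held 5.80, 7.83, 9.73, 7.93 and 5.58 rescaled CPM with placebo and 8.88, 9.73, 12.6, 12.3 and 11.5 with osimertinib, a rise of 0.56 ± 0.16 (limma adjusted p = 0.0326; 0.0955 on deposited CPM). The other 6, including Slc25a13, were not called. Slc25a22, a glutamate carrier, held 29.2, 50.7, 27.0, 34.9 and 28.2 with placebo and 24.7, 20.7, 29.2, 34.1 and 28.9 with osimertinib, largely overlapping. Slc25a44, a carrier of branched-chain amino acids, had a log2 fold change of 0.28 (limma adjusted p = 0.122). Slc25a38, a glycine carrier needed for haem synthesis and second in level per kilobase in the group, held 14.96, 14.8, 15.8, 16.2 and 14.2 with placebo and 13.1, 12.4, 14.7, 14.0 and 15.8 with osimertinib (log2 fold change -0.12, limma adjusted p = 0.397).

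Nucleotide and cofactor carriers gave 5 rises and 1 fall among 13 members, with a median log2 fold change of -0.02. Over all genes tested, 10.4% rose and 10.5% fell. Slc25a33, a pyrimidine nucleotide carrier, held 3.09, 4.64, 7.197, 6.16 and 4.34 rescaled CPM with placebo and 6.32, 7.195, 11.5, 6.86 and 12.8 with osimertinib, and rose by 0.75 ± 0.24 (limma adjusted p = 0.0441). Its relative Slc25a36 held 58.9, 77.5, 57.9, 50.1 and 30.8 with placebo and 52.1, 59.1, 39.5, 38.9 and 40.5 with osimertinib, a log2 fold change of -0.21 (limma adjusted p = 0.490). The log2 ratio of Slc25a36 to Slc25a33 was 3.30 ± 0.63 (SD, n = 5) with placebo and 2.34 ± 0.64 with osimertinib, and all 5 osimertinib libraries lay below the placebo mean (exact permutation p = 0.0794, adjusted p = 0.139).

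Slc25a16, a carrier linked to coenzyme A supply, was one of 3 members whose osimertinib libraries all exceeded the placebo libraries on rescaled CPM, together with Slc25a23 and Slc25a39. Non-overlap in that direction was found for 5.72% of all genes. Slc25a16 held 3.60, 4.92, 3.50, 3.47 and 5.27 with placebo and 5.30, 6.03, 7.19, 6.46 and 8.27 with osimertinib. It rose by 0.63 ± 0.16 (limma adjusted p = 0.0221; 0.0556 on deposited CPM), and the call held in 7 of the 10 fits without 1 library. Slc25a42, which exchanges coenzyme A and adenine nucleotides, ranged from 9.72 to 34.0 with placebo and from 17.5 to 25.1 with osimertinib (log2 fold change 0.05, limma adjusted p = 0.915). Slc25a51, the NAD carrier, held 27.1, 28.1, 31.3, 32.6 and 29.4 rescaled CPM with placebo and 28.1, 31.8, 29.1, 26.7 and 30.4 with osimertinib. Its values were the steadiest of the family, with the smallest SE, 0.09, and a log2 fold change of -0.02 (95% interval -0.23 to 0.18).

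The ATP-magnesium/phosphate carriers, which change the matrix adenine nucleotide content in response to calcium, gave 1 rise and 1 fall among 3 members. Over all genes tested, 10.4% rose and 10.5% fell. Slc25a23 held 20.7, 23.5, 25.8, 29.0 and 30.05 rescaled CPM with placebo and 32.8, 30.8, 34.8, 33.8 and 32.5 with osimertinib, with every osimertinib library above every placebo library, and rose by 0.36 ± 0.11 (limma adjusted p = 0.0432; 0.215 on deposited CPM). The call was kept in 2 of 10 fits without 1 library. Slc25a25 went the other way, from 16.3, 10.3, 13.3, 12.8 and 11.05 with placebo to 6.79, 12.1, 8.48, 6.51 and 4.70 with osimertinib. Only osimertinib library 2 lay within the placebo range, and the fall was -0.74 ± 0.21 on the log2 scale (limma adjusted p = 0.0320; log2 fold change -0.47 and adjusted p = 0.411 on deposited CPM). Slc25a24 had a log2 fold change of -0.14 (limma adjusted p = 0.429).

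Within a library the balance of Slc25a23 to Slc25a25 gave the smallest p of the 7 ratios. The log2 ratio was 0.33, 1.15, 0.92, 1.15 and 1.40 with placebo and 2.19, 1.32, 1.97, 2.29 and 2.66 with osimertinib. Osimertinib library 2 overlapped placebo library 5. The mean ratio went from 0.99 ± 0.41 (SD, n = 5) to 2.09 ± 0.50, a difference of 1.10 (exact permutation p = 0.0159, adjusted p = 0.111). None of the 7 ratios passed after adjustment in these two-sided exact permutation tests over all assignments of the libraries to groups, and 2 had an unadjusted p under 0.05, the other being Slc25a39 to Slc25a40. The smallest p such a test can give here is 0.00794, and a lone ratio at that p would have an adjusted p of 0.0556, so 0 calls here says little.

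**Figure D4:**
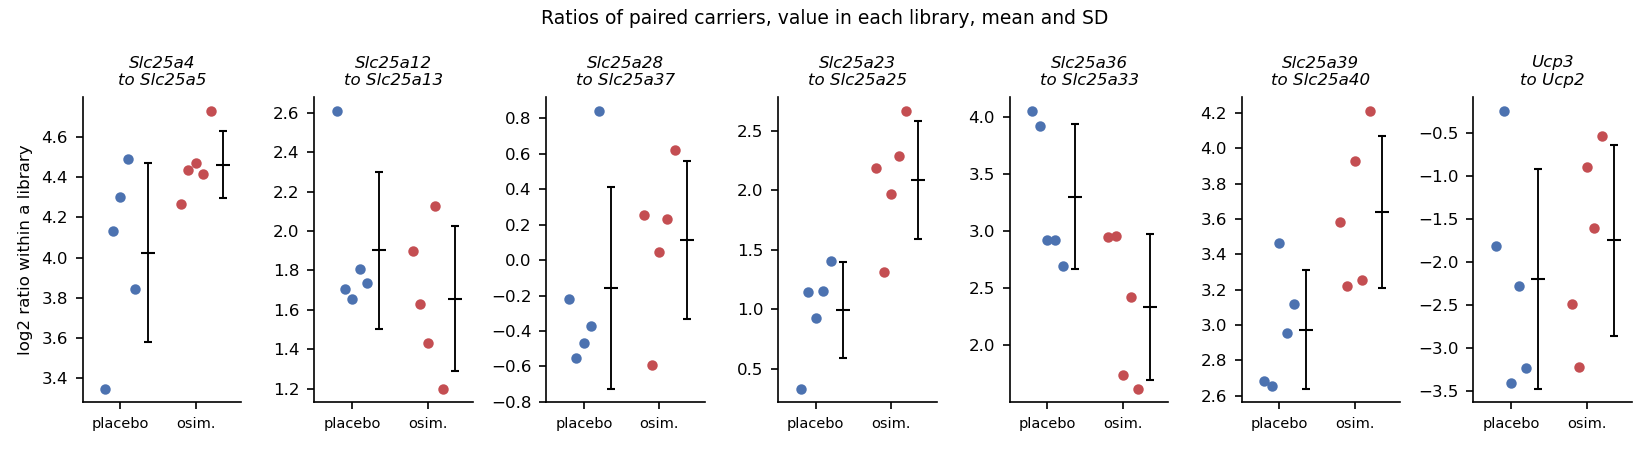
Log2 ratio of paired carriers within each library (y axis, a separate range for each of 7 pairs), 1 point per library in replicate order, with the mean and SD of 5 libraries. Slc25a23 to Slc25a25 and Slc25a39 to Slc25a40 shifted upward with osimertinib but the groups overlap in every panel.

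Slc25a39, which imports glutathione into mitochondria, held 33.3, 37.5, 50.2, 49.2 and 51.3 rescaled CPM with placebo and 52.6, 56.5, 79.5, 51.5 and 86.7 with osimertinib. The groups did not overlap, yet the log2 fold change of 0.54 ± 0.18 lay at the threshold without passing it (limma adjusted p = 0.0501). Slc25a40, its paralog, held 4.77, 5.53, 4.11, 5.90 and 5.47 with placebo and 3.93, 5.62, 4.75, 4.96 and 4.21 with osimertinib (log2 fold change -0.12, limma adjusted p = 0.532). Their log2 ratio averaged 2.97 ± 0.33 (SD, n = 5) with placebo and 3.64 ± 0.43 with osimertinib, a difference of 0.66 (exact permutation p = 0.0317, adjusted p = 0.111).

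The iron carriers gave 0 calls among 2 members in limma, with 1 at an unadjusted p under 0.05. Slc25a37, mitoferrin-1, held 28.4, 34.8, 30.4, 30.6 and 17.7 rescaled CPM with placebo and 17.9, 25.8, 16.8, 21.3 and 13.8 with osimertinib. Placebo library 5 lay among the osimertinib libraries, and the log2 fold change was -0.55 ± 0.20 (limma adjusted p = 0.0606). Without placebo library 5 it was -0.71 (limma adjusted p = 0.0221). Slc25a28, mitoferrin-2, held 24.3, 23.5, 21.8, 23.5 and 32.01 with placebo and 21.4, 16.9, 17.4, 25.2 and 21.5 with osimertinib (log2 fold change -0.29, limma adjusted p = 0.145). The enzymes that use iron in the matrix had positive differences. Of 6, 5 rose, as did 10.4% of all genes tested. Among the 5 were the haem-forming ferrochelatase Fech (0.64 ± 0.16, limma adjusted p = 0.0213) and the iron-sulfur scaffold Iscu (0.69 ± 0.18, adjusted p = 0.0246). Mitoferrin-1 is abundant in red cell precursors, and the summed erythroid marker level was 111 to 300 rescaled CPM with placebo and 43.1 to 384 with osimertinib, with 0 of 4 tested markers called and 0 at an unadjusted p under 0.05 in limma, while the part of blood content in these values was not tested.

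The 2 members lowest against placebo belonged to the group without an assigned substrate, where 0 of 6 rose and 2 fell. Over all genes tested, 10.4% rose and 10.5% fell. Slc25a47, a carrier best known from liver (chr12:108836046-108856815, plus strand), held 5.00, 6.38, 7.15, 8.26 and 6.61 rescaled CPM with placebo and 3.40, 3.70, 3.36, 3.51 and 3.62 with osimertinib. The osimertinib libraries were tightly grouped at 3.52 ± 0.15 (SD, n = 5) below all placebo libraries at 6.68 ± 1.19. The fall was -0.82 ± 0.13 on the log2 scale (limma adjusted p = 0.00868). Slc25a45 (chr19:5877808-5885878, plus strand) held 14.2, 15.1, 11.3, 10.6 and 17.0 with placebo and 8.70, 7.40, 6.61, 7.67 and 6.16 with osimertinib, again without overlap, a fall of -0.84 ± 0.15 (limma adjusted p = 0.0104). Non-overlap in this direction was found for 6.82% of all genes.

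Both falls kept their call in 10 of 10 fits without 1 library. On the deposited CPM they were not called, with log2 fold changes of -0.57 and -0.57 and limma adjusted p of 0.258 and 0.259 for Slc25a47 and Slc25a45. The longest annotated span of Slc25a47 lies 163 bases from Slc25a29, a carrier of basic amino acids on the opposite strand. The RefSeq window of Slc25a47 printed above is farther away, ending at chr12:108851128, where Slc25a29 ends at 108835883. Slc25a29 had a log2 fold change of 0.17 (limma adjusted p = 0.630). Slc25a34, also without an assigned substrate and the most abundant of its group per kilobase, held 10.4, 21.1, 20.9, 26.5 and 17.0 with placebo and 22.4, 19.96, 42.1, 21.04 and 59.98 with osimertinib, where libraries 3 and 5 stood apart (log2 fold change 0.69, limma adjusted p = 0.129). Slc25a46, a member of the outer membrane, held 18.04, 19.7, 22.2, 22.6 and 17.2 with placebo and 20.3, 24.9, 25.0, 22.1 and 25.8 with osimertinib (log2 fold change 0.24, limma adjusted p = 0.133).

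Uncoupling proteins and their relatives gave 0 calls among 5 members in limma and 0 at an unadjusted p under 0.05. Nearest was Slc25a27 (log2 fold change -0.43, 95% interval -0.86 to 0.00, adjusted p = 0.131). Ucp3, an uncoupling protein of muscle whose level follows fatty acid supply, was the most variable member, with the largest SE of the 41. It held 17.4, 50.7, 5.73, 11.6 and 10.0 rescaled CPM with placebo and 10.5, 5.17, 22.8, 30.9 and 32.1 with osimertinib. The highest and lowest of all 10 values were placebo library 2 and osimertinib library 2, and the log2 fold change of 0.21 ± 0.57 had a 95% interval from -1.03 to 1.45 (limma adjusted p = 0.815). Ucp2, which lies 6905 bases from Ucp3 on chromosome 7 and is expressed in many cell types, held 62.4, 60.2, 65.4, 58.3 and 98.3 with placebo and 61.5, 52.1, 42.9, 94.5 and 46.8 with osimertinib (log2 fold change -0.24, limma adjusted p = 0.428). The log2 ratio of Ucp3 to Ucp2 spread from -3.40 to -0.25 with placebo and from -3.22 to -0.54 with osimertinib (exact permutation p = 0.563, adjusted p = 0.563).

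Among 3 carboxylate carriers, the 2 other than Slc25a11 were not called. Slc25a10, the dicarboxylate carrier, held 6.97, 6.71, 6.64, 7.93 and 13.2 rescaled CPM with placebo and 10.2, 9.32, 9.73, 8.32 and 10.7 with osimertinib. After rescaling, placebo library 5 was the highest of all 10 and the other placebo libraries lay below every osimertinib library (log2 fold change 0.25, limma adjusted p = 0.301). On the deposited CPM placebo library 5 was the lowest of all 10, at 6.01. Without placebo library 5 the log2 fold change was 0.43 (limma adjusted p = 0.0275). Slc25a1, the citrate carrier that exports carbon for lipid synthesis, held 10.8, 7.69, 5.17, 5.96 and 12.8 with placebo and 11.4, 7.45, 8.72, 11.4 and 7.24 with osimertinib (log2 fold change 0.17, limma adjusted p = 0.629). The 7 members not named above with a fold change (Slc25a14, Slc25a15, Slc25a17, Slc25a30, Slc25a32, Slc25a35 and Slc25a53) had log2 fold changes of -0.35 to 0.16, and the lowest limma adjusted p among them was 0.215.

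Genes that work beside the carriers gave 18 higher and 0 lower of 34 on rescaled CPM in limma, with 3 at an unadjusted p under 0.05 and a negative difference. Their median log2 fold change was 0.73, against 0.01 over all genes, of which 10.4% were called higher and 10.5% lower. Leaving out osimertinib library 3 reduced the 18 to 2, and leaving out placebo library 1 or 2 or osimertinib library 5 reduced it to 5, 3 and 4. In the same fits the genes called higher among all 12350 fell from 1283 to 218, 373, 317 and 296. Of the 5 partners of adenine nucleotide exchange 4 rose, the lowest p being those of the outer membrane channels Vdac1 (1.21 ± 0.24, limma adjusted p = 0.0140) and Vdac3 (0.78 ± 0.18, adjusted p = 0.0187), and the mitochondrial creatine kinase Ckmt2 was not called (1.22, adjusted p = 0.0563). Of 14 other mitochondrial membrane proteins, among them Mtch1 and Mtch2, outer membrane relatives of this family, 5 rose, among them Ghitm (1.03 ± 0.21, limma adjusted p = 0.0140) and Mpc1, a subunit of the pyruvate carrier (1.14 ± 0.30, adjusted p = 0.0267).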

How the data were processed

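Per the labels' protocols, RNA of the left ventricle was selected for poly(A) tails from 5 ug of total RNA, and per the design text libraries were strand-specific. The deposited CPM were scaled by the authors to each library's total, and each column sums to 1000000. The design text names STAR and RSEM on GRCm38, while the submitters' processing notes name HISAT2 2.0.4, StringTie 1.3.4d, cutadapt 1.9, DESeq2 and the human build hg38. The identifiers are mouse, and 45143 of 45706 matched GENCODE M21, which gave positions and exon lengths. The spacing of low values gave the depth. Reads were whole, to a tolerance of 0.01 read, in 90.7% to 93.4% of low values, so the main fit used no count model. As an alternative, limma's voom was run on reads estimated from that depth. It called 9 members higher and 3 lower, and 1315 genes higher and 1318 lower over all 12350.

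CPM were divided by median-ratio factors and genes with at least 1 deposited CPM in 5 libraries were tested with limma 3.58.1 (R 4.3.3) with an intensity trend on log2(rescaled CPM + 0.5) in both directions, calling genes at a Benjamini-Hochberg adjusted p of 0.05. Fold changes are on that scale, which understates changes of low genes. Ratios were tested with exact permutation, adjusted over 7 pairs (an 8th was left out because Slc25a18 was under the filter). Samples were grouped by title. Scaling, pseudocount, filter, model and left-out libraries were varied. The test was checked on simulated counts with the same spread setting for every gene and no differences in atrial or mitochondrial content between libraries. That check cannot show how the test behaves where libraries differ in such content. The members, lists and scaling were chosen with earlier results of these data known. Per-library values are given for members called on either scale, up to 2 further members of each group by level, and both members of each pair, with up to 2 partner genes of lowest p per list. The partner genes Cpt2, Cpt1b, Ckmt2, Mpc1, Mtch1 and Mtch2 fall outside that rule and were named after their values were seen. Of the genes this rule takes, 1 member and 1 gene of the partner lists are not reported here.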

Additional observations from a re-analysis of the deposited data

Results flagged for a closer look

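In 6 of 96 groups of 5 values, 1 library lay far from the other 4 (a gap over 0.71 of the group's range on the log2 scale), where chance gives about 1 in 20. Placebo library 5 was the high value in 4 of them. Its rescaled CPM were 13.2 for Slc25a10 (others 6.64 to 7.93), 32.01 for Slc25a28 (others 21.8 to 24.3) and 98.3 for Ucp2 (others 58.3 to 65.4). These high values appear only after division by its factor of 0.455. On the deposited CPM it held the lowest value of any library for each of these genes (6.01, 14.5 and 44.7). Its log2 ratio of Slc25a28 to Slc25a37 was 0.84 (others -0.56 to -0.22). That library had the highest mitochondrial share, 63.4%, and its part in these values was not tested. Placebo library 1 had a log2 ratio of Slc25a12 to Slc25a13 of 2.61 (others 1.66 to 1.81). Slc25a53, the lowest member per length, was at 0.7095 rescaled CPM in placebo library 3 (others 1.18 to 1.36).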

How the results depend on the processing

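The call counts depended on scaling and on single libraries. Members called higher, 9 as reported, were 3 on CPM without mitochondrially encoded and haemoglobin genes, 2 with no filter, 3 on deposited CPM without placebo library 5, 14 with the atrial covariate and 0 to 11 without 1 library. Members called lower, 3 as reported, were 0 on deposited CPM (0 at an unadjusted p under 0.05 in limma), 6 with the atrial covariate, 5 with the replicate number as a block and 2 to 5 without 1 library. Genes called higher, 1283 as reported, were 817, 505, 529, 567 and 2558 on deposited CPM, without mitochondrial and haemoglobin genes, with no filter, on deposited CPM without placebo library 5 and with the atrial covariate, and 218 to 1555 without 1 library. Genes called lower, 1291 as reported, were 16, 111, 698, 238 and 2069 under the same settings and 303 to 1363 without 1 library. Higher calls were 49.8% of all calls on rescaled and 98.1% on deposited CPM. Partner genes called higher, 18 as reported, were 7 with no filter and 2 to 22 without 1 library, and those called lower, 0 as reported, were 1 with quantile normalization, 2 with array weights, 2 with the atrial covariate and 0 to 2 without 1 library. The causes were not tested. The atrial covariate and the deposited CPM without placebo library 5 were chosen after the data were examined. The 7 ratios gave 0 calls under every setting run, which says nothing about their stability. A lone ratio can reach an adjusted p of 0.0556 at best, or 0.111 without 1 library, and the paired sign-flip test cannot give a p under 0.0625.

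Same-numbered samples deviated together for numbers 1 to 3 (r = 0.428, 0.245 and 0.464) but not for 4 and 5 (-0.339 and -0.162). Placebo samples 1 to 5 correlated best with osimertinib samples 1, 2, 3, 5 and 4, in that order. The titles pair the samples by nothing but the number, and the cause of these correlations was not tested. With the replicate block 12 members were called higher.

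Signs turned only among members that were not called. On deposited CPM the log2 fold change became 0.0599 for Slc25a17, 0.0006 for Slc25a22, 0.12 for Slc25a24, 0.17 for Slc25a32, 0.0654 for Slc25a36, 0.15 for Slc25a38, 0.13 for Slc25a40, 0.26 for Slc25a51 and 0.0446 for Ucp2. Without placebo library 5 as well it was 0.0284 for Slc25a32 and 0.0098 for Slc25a51. Array weights gave -0.0516 for Slc25a42 and -0.27 for Ucp3. Without 1 library the ranges were -0.061 to 0.0875 for Slc25a15, -0.0185 to 0.2335 for Slc25a30, -0.1903 to 0.0326 for Slc25a32, -0.19 to 0.25 for Slc25a42, -0.0549 to 0.0097 for Slc25a51 and -0.11 to 0.65 for Ucp3. Depth limits the members near 1 CPM, where few reads stand behind a value.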
